A study of Homo sapiens with 5 samples.

Results

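The genes described here encode the proteins of the cytosolic ribosome. They were taken by symbol: RPL or RPS followed by digits, with the usual suffixes for paralogs, together with the stalk genes RPLP0, RPLP1 and RPLP2 and with RPSA, and a mean of at least 10 counts over the 5 libraries. Of 26364 listed symbols, 85 had such a name and 82 met the minimum, 50 of the large and 32 of the small subunit. The other three, the paralogs RPL3L, RPL10L and RPL39L, had 0 counts in every library, which in the shallowest library allows up to 6.91 CPM (the standard scaling of a gene's counts to the size of its library). The member closest to the minimum was RPL26L1 with a mean of 15 counts. The rule itself uses only names and a mean count.

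The libraries come from tumours of HT-29, an established human colon carcinoma cell line, that grew under the skin of the back of female NOD SCID mice. This strain lacks functional T and B cells and rejects few human cells. The animals were 5 weeks old, and the series' text gives a rearing time of 2 weeks on the diets and in another place a longer period. One library came from normal food, 2 from food lacking methionine, 1 from food lacking both tryptophan and niacin, and 1 from food lacking methionine, tryptophan and niacin (called the combined omission below). HT-29 cells had been grown in complete medium before implantation, and every tumour, that on normal food included, arose from this one line. The labels do not say whether the methionine-free pair came from separate mice, so the p-values rest on how far those libraries differ, which could be technical variation alone. The normal and combined-omission libraries carry titles in a shorter style than the other 3, and a difference in handling, if the style marks one, cannot be told apart from diet.

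Each ribosome has a large subunit, which joins amino acids, and a small subunit, which reads the messenger RNA. Their proteins are needed in nearly equal numbers, and their mRNAs are among the most abundant and shortest in growing cells. Most of these mRNAs begin with a cytosine and a run of pyrimidines, the 5′ terminal oligopyrimidine (TOP) tract, through which the kinase mTOR, a sensor of amino acids, and the protein LARP1 control their translation and stability. Amino acid supply is known to act on this gene family largely at that level, which counts of RNA capture only in part.

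Totals per library ran from 433930 to 1088084 counts. The ribosomal protein genes took 7.59% of all counts on normal food, 8.89% and 12.4% in methionine-free replicates 1 and 2, 7.04% without tryptophan and niacin and 7.48% under the combined omission. All 82 passed the filter on low counts, as did 9923 other genes. Their median count was 320.2 to 840.5 per library, against 20.5 to 51.5 for the others. Markers of the colon epithelial line summed to between 14343 and 17655 CPM and were all detected. Fibroblast markers summed to 16.2 to 20.7 CPM with 5 of 8 at 0 in every library, endothelial markers to at most 3.19 CPM with 4 of 5 at 0, leukocyte markers to 34.7 to 64 CPM with 3 of 6 at 0, and all 3 erythroid markers were at 0. Nearly all of the leukocyte sum came from CD68 (32.4 to 56.5 CPM). These are human symbols, and how mouse reads were treated is not given, so the sums do not measure the host's cells in the tumours. Of 6 skeletal muscle markers 1 was at 0 in every library. The 6 summed to 67.3 CPM in the tryptophan/niacin-free library and to at most 2.72 CPM elsewhere. In that library nearly all of the sum came from MYH1 (22.1 CPM), MYH2 (24.5 CPM) and MYH4 (19.2 CPM). There ACTA1 stood at 1.6 CPM, and CKM and TNNT3 at 0. Their part in the lower levels of that library was not tested. In bulk tumour RNA, fewer cells of a type and less RNA per cell cannot be told apart. Ribosomal protein genes have many processed copies: 31 listed pseudogenes, 19 of them above 0, together held 3.09% to 3.34% as many counts as the members, and 3 readthrough loci (RPL17-C18orf32, RPS10-NUDT3 and RPL36A-HNRNPH2) held 1.42% to 1.52%. Decimal counts, which can arise when a read is shared between features, occurred in 31 members, and levels of these genes are uncertain to that extent.

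The start sites are shown first, because the TOP tract is the feature that these genes share and that the naming rule did not use. RefSeq promoter records (GRCh38.p14) were matched for 67 of the 82 genes by symbol. RPL5, RPL7, RPL23, RPL37, RPS2 and RPS15A are among those not matched. A tract was counted where the first transcribed base of any record of a gene was C and was followed by at least 4 bases that are C or T, on the coding strand. It was present in 47 of 67 members (70.1%), against 5.14% of all 27305 genes with a record, 7.43% of other tested genes, 9.51% of other tested genes with transcripts under 1000 bases and 8.82% of 68 genes for mitochondrial ribosomal proteins. The windows below hold 30 bases before and 20 bases after the start, and the position of the start codon was not looked up. The tract at the start is in capitals. The first 4 are among the 5 genes with the largest fitted differences between methionine-free and normal food: RPS3A at chr4:151099598-151099647 (plus strand), RPL28 at chr19:55385902-55385951 (plus), RPL9 at chr4:39458903-39458952 (minus) and RPS26 at chr12:56041888-56041937 (plus).
RPS3A: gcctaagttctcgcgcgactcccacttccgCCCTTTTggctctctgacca
RPL28: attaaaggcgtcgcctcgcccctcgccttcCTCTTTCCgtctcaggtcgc
RPL9: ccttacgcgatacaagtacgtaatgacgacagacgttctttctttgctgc
RPS26: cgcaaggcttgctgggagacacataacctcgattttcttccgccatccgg
RPL11 at chr1:23691776-23691825 (plus) and RPL34 at chr4:108620546-108620595 (plus) are among those with the smallest differences.
RPL11: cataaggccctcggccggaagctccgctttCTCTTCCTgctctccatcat
RPL34: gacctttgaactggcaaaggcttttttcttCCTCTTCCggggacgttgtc
Genes with a tract thus stand at both ends of the range, and RPL9 and RPS26 have none at the listed start. The last 3 pairs set a gene beside its paralog: RPL26 at chr17:8383174-8383223 (minus) and RPL26L1 at chr5:172958699-172958748 (plus), RPS27 at chr1:153990732-153990781 (plus) and RPS27L at chr15:63157458-63157507 (minus), RPL22 at chr1:6199576-6199625 (minus) and RPL22L1 at chr3:170870176-170870225 (minus).
RPL26: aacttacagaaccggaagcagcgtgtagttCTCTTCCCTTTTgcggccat
RPL26L1: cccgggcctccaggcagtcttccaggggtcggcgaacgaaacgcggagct
RPS27: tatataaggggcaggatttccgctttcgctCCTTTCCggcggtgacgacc
RPS27L: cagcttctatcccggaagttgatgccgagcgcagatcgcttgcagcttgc
RPL22: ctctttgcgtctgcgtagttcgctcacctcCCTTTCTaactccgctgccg
RPL22L1: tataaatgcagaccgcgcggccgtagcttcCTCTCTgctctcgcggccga
At the listed starts, RPL26L1 and RPS27L lack the tract of their more abundant relatives, whereas RPL22L1 has one. Over the whole window of 250 bases before and 50 after the start, read on both strands, CCGGAAG was found in 24 members (35.8%; 12.2% of all genes with a record and 24.2% of other tested genes) and TATAAA in 6 (8.96%; 14.0% and 7.67%). GGGCGG was found in 39 (58.2%; 48.3% and 78.7%). None of these motifs contains another. The first-named motif was also found in 31.9% of other tested genes with transcripts under 1000 bases. Among the 68 genes for mitochondrial ribosomal proteins its share was 42.6%, above that of the members, so it was not particular to the family. In the same order of sets, the shares were 6.96% and 4.41% for the second motif and 75.6% and 60.3% for the last.

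Levels per transcript length spanned a wide range, and the order of the genes was similar in the 5 libraries. On normal food the median was 1076 CPM per kilobase, with a median of 1061 for large and 1118 for small subunit genes. High mean levels per kilobase were those of RPL41, which encodes the smallest ribosomal protein, and of RPLP1, an acidic protein of the stalk, with RPS18 and RPS2 of the small subunit also among the first 5. RPL41 stood at 3267, 4006, 7104, 2820.3 and 3189 CPM per kilobase on normal food, in methionine-free replicates 1 and 2, without tryptophan and niacin and under the combined omission. RPLP1 stood at 3106, 3798, 6021, 2977 and 3587 CPM per kilobase in the same order. Both genes were thus highest in methionine-free replicate 2 and lowest without tryptophan and niacin. The 5 lowest were paralogs: RPL7L1, RPL22L1, RPL26L1, RPS27L and RPL36AL, with mean levels of 16.5, 31.2, 34.1, 63.8 and 104 CPM per kilobase. Across the 82 genes the CPM on normal food and in each other library correlated with Pearson's r of 0.975 (methionine-free replicate 2) to 0.994 (methionine-free replicate 1). The genes share the library depth of each sample, and these values are a description.

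**Figure D1:**
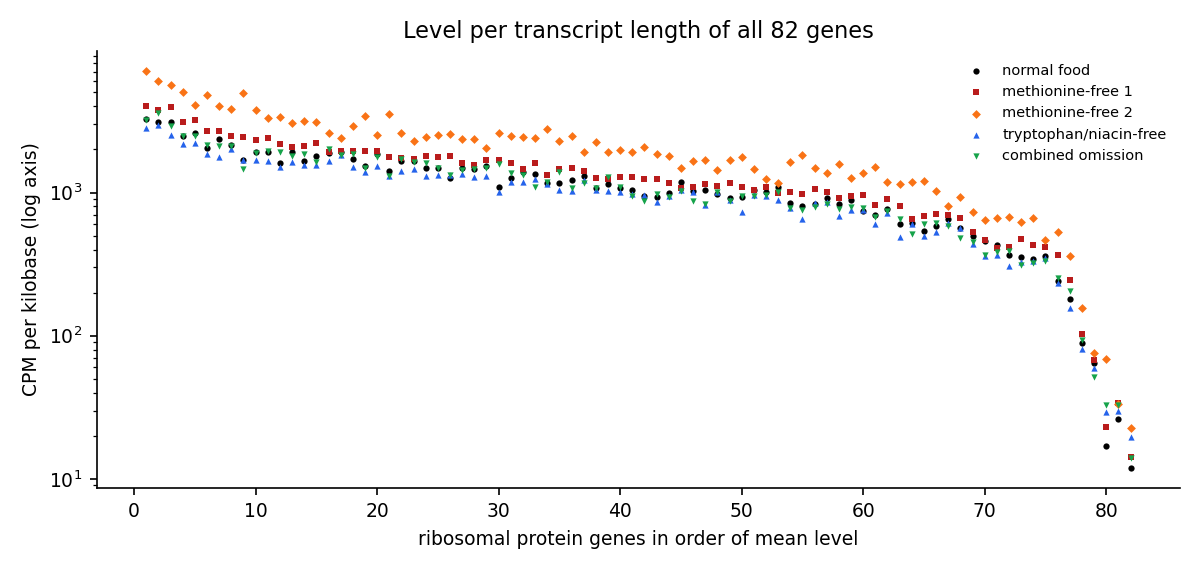
Level of each of the 82 genes in CPM per kilobase of median transcript length (log axis), in order of the mean over the 5 libraries, with 1 symbol per library. Methionine-free replicate 2 lies above the other libraries along nearly the whole range, and the 5 genes at the right end are the paralogs named in the text.

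Against normal food, the ribosomal protein genes stood higher in both methionine-free libraries, much more so in replicate 2, and slightly lower without tryptophan and niacin. The median log2 difference in CPM from the normal library was 0.24 in methionine-free replicate 1 (78 of 82 above 0; 49.8% of all tested genes were above 0) and 0.83 in replicate 2 (82 of 82; 49.4%). It was −0.13 without tryptophan and niacin (10 of 82 above 0; 49.3%) and −0.05 under the combined omission (33 of 82; 48.4%). The median over all 10005 tested genes lay within 0.01 of 0 in each of these libraries. Methionine-free replicate 2 held the highest level of the 5 libraries for 81 of 82 genes (31.1% of tested genes), all but RPL22L1. Replicate 1 held the second highest level for 73 (24.9%). Both methionine-free libraries were above all 3 others for 74 genes (17.0%); RPL7, RPL11, RPL17, RPL26L1 and RPL7L1 are among the exceptions. The tryptophan/niacin-free library was lowest for 55 genes (18.0%).

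**Figure D2:**
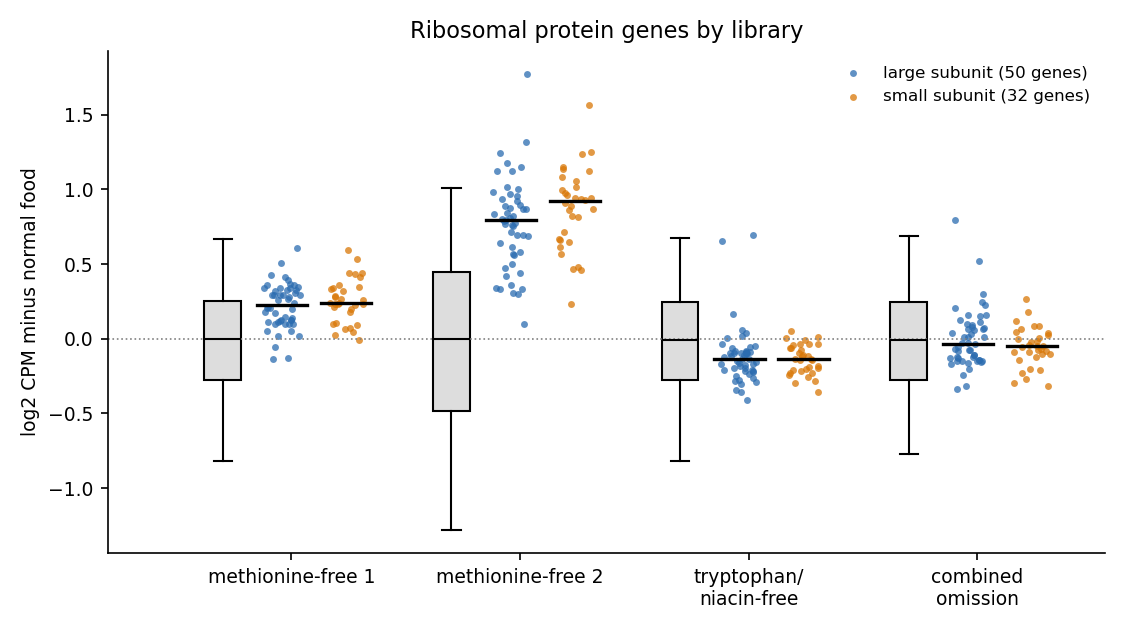
Difference of each ribosomal protein gene from the normal-food library in log2 CPM, by library and subunit; black lines are the medians of 50 large and 32 small subunit genes, and grey boxes show all 10005 tested genes (median, quartiles and whiskers from 5% to 95%). The members sit above 0 in both methionine-free libraries, with medians of 0.79 and 0.92 in replicate 2, and slightly below 0 without tryptophan and niacin.

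The difference within the methionine-free pair was as large as the fitted difference of the pair from normal food. Replicate 2 exceeded replicate 1 in 81 of 82 genes (50.4% of tested genes), by a median of 0.57 on the log2 scale. In edgeR's quasi-likelihood test of the pair against normal food, 0 of 82 genes passed the adjusted threshold of 0.05, where 23 of 10005 genes did (0.23%), all of them lower. At an unadjusted p below the same value there was 1 member, RPL26L1, of 82, against 7.68% of all tested genes. DESeq2 and limma-voom called 0 members as well. The median fitted log2 fold change over the members was 0.57 with a median SE of 0.54, against 0.00 over all tested genes, and 81 of 82 were above 0 (50.3% of tested genes). Each SE of this fit rests on a spread shared across genes, not on that gene's own pair. Adjusted p ran from 0.544 to 0.997. The median was 0.83 from replicate 2 alone and 0.24 from replicate 1 alone.

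The 5 highest fold changes belonged to RPL26L1, RPS3A, RPL28, RPL9 and RPS26. RPS3A, a small subunit protein near the exit of the mRNA channel, stood at 1453 CPM on normal food, 2100.3 and 4305 CPM in methionine-free replicates 1 and 2, 1464 CPM without tryptophan and niacin and 1258 CPM under the combined omission (log2 fold change 1.14, SE 0.64, adjusted p = 0.717). Replicate 2 alone was far above the rest, and replicate 1 lay above the 3 other libraries, which were close together. RPL28, a large subunit protein with no bacterial counterpart, stood at 737 CPM on normal food, 1126 and 1744 CPM in methionine-free replicates 1 and 2, 672 CPM without tryptophan and niacin and 1059.5 CPM under the combined omission (log2 fold change 0.96, SE 0.56, adjusted p = 0.739). Here the combined omission was close to methionine-free replicate 1, unlike in RPS3A. RPL9, at the base of the stalk, stood at 1094 CPM on normal food, 1374 and 2734 CPM in methionine-free replicates 1 and 2, 1012 CPM without tryptophan and niacin and 1013 CPM under the combined omission (log2 fold change 0.91, SE 0.59, adjusted p = 0.773). RPS26, which lies along the path of the mRNA and is mutated in Diamond-Blackfan anaemia, stood at 273 CPM on normal food, 415 and 606 CPM in methionine-free replicates 1 and 2, 267 CPM without tryptophan and niacin and 287 CPM under the combined omission (log2 fold change 0.90, SE 0.47, adjusted p = 0.675). In RPL9 and RPS26 the methionine-free pair did not overlap with the other 3 libraries, which differed little among themselves. RPL26L1 rested on 13, 9, 30, 13 and 10 counts in that order of libraries (log2 fold change 1.44, SE 0.59, adjusted p = 0.544).

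The 5 lowest were RPL11, RPL7, RPS27L, RPL23 and RPL34. RPL11 and RPL5 bind the 5S ribosomal RNA and, when ribosome assembly stalls, the ubiquitin ligase MDM2. RPL11 stood at 960.4 CPM on normal food, 875 and 1029 CPM in methionine-free replicates 1 and 2, 777 CPM without tryptophan and niacin and 891 CPM under the combined omission (log2 fold change −0.01, SE 0.52, adjusted p = 0.997), so that the 5 libraries lay close together and the methionine-free pair straddled the normal library. Its partner RPL5 stood at 1055 CPM on normal food, 1129 and 1704 CPM in methionine-free replicates 1 and 2, 1031 CPM without tryptophan and niacin and 891 CPM under the combined omission (log2 fold change 0.43, SE 0.55, adjusted p = 0.913), with replicate 2 apart from the rest. RPL7, a large subunit protein, stood at 1426 CPM on normal food, 1303 and 1798 CPM in methionine-free replicates 1 and 2, 1246 CPM without tryptophan and niacin and 1238 CPM under the combined omission (log2 fold change 0.12, SE 0.56, adjusted p = 0.988). RPL23, which binds the assembly factor eIF6 on the face between the subunits, stood at 1178 CPM on normal food, 1193 and 1482 CPM in methionine-free replicates 1 and 2, 1132 CPM without tryptophan and niacin and 1131 CPM under the combined omission (log2 fold change 0.18, SE 0.55, adjusted p = 0.973). In RPL7 replicate 1 lay below the normal library, so that the groups overlapped, and in RPL23 it lay just above it. RPL34, of the large subunit, stood at 357 CPM on normal food, 382 and 442 CPM in methionine-free replicates 1 and 2, 335 CPM without tryptophan and niacin and 322 CPM under the combined omission (log2 fold change 0.21, SE 0.46, adjusted p = 0.958).

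**Figure D3:**
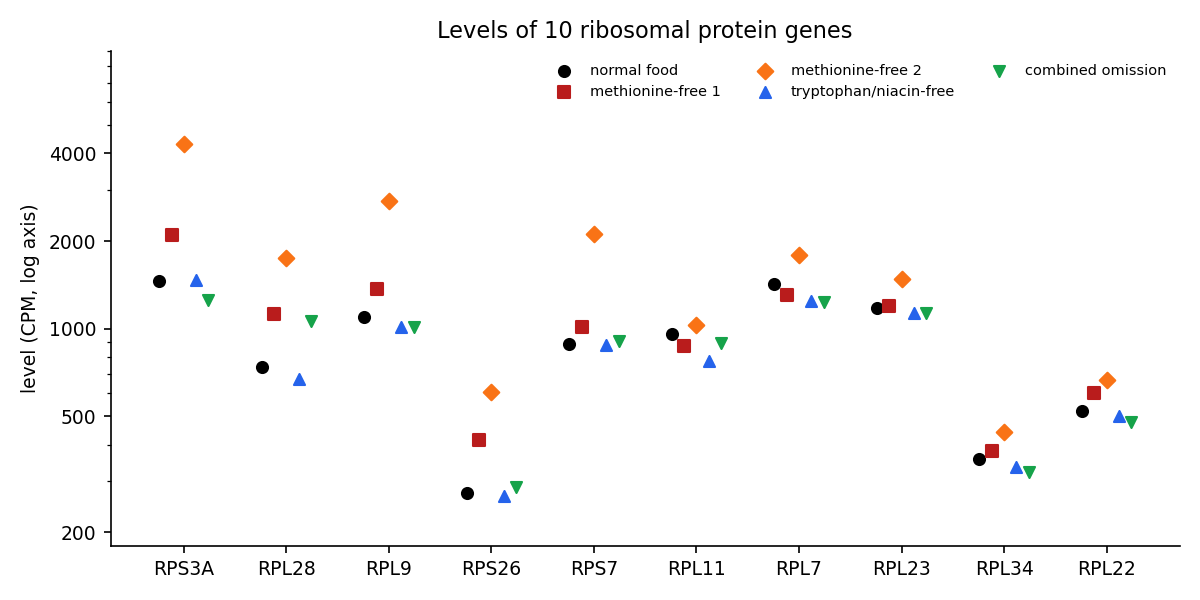
CPM (log axis) of 10 named ribosomal protein genes in each of the 5 libraries. For RPS3A, RPL28, RPL9, RPS26 and RPS7 methionine-free replicate 2 stands well above the rest, whereas for RPL11 the 5 libraries lie between 777 and 1029 CPM.

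In the genes taken next, chosen for their roles, methionine-free replicate 2 was highest and replicate 1 second in each. The stalk recruits the elongation factors: its scaffold RPLP0 stood at 2374 (normal), 2733 and 4233 (methionine-free), 2218 (tryptophan/niacin-free) and 2325 CPM (combined omission). RPLP1 stood at 1382 (normal), 1690.1 and 2679.5 (methionine-free), 1325 (tryptophan/niacin-free) and 1596 CPM (combined omission), and RPLP2 at 660.0 (normal), 882 and 1325 (methionine-free), 605 (tryptophan/niacin-free) and 687 CPM (combined omission). The 3 other libraries lay below both methionine-free libraries in all 3 genes, and the adjusted p of the methionine-free pair against normal food in edgeR's test were 0.9, 0.856 and 0.802. RPS6, the substrate of the S6 kinases downstream of mTOR, stood at 1725 (normal), 2179.7 and 3828 (methionine-free), 1559 (tryptophan/niacin-free) and 1679.5 CPM (combined omission) (log2 fold change 0.80, SE 0.63, adjusted p = 0.833). RPL13A, also known from interferon-induced translational silencing, stood at 1962 (normal), 2209 and 3319 (methionine-free), 1714 (tryptophan/niacin-free) and 2102 CPM (combined omission) (log2 fold change 0.49, SE 0.62, adjusted p = 0.911). RPSA, also called the laminin receptor, stood at 679 (normal), 725 and 1299.6 (methionine-free), 662 (tryptophan/niacin-free) and 561 CPM (combined omission) (log2 fold change 0.58, SE 0.52, adjusted p = 0.856). Only replicate 2 was set apart in RPSA, where replicate 1 exceeded the normal library by 0.09 on the log2 scale. RPS4X, an X-linked small subunit gene, stood at 1299.6 (normal), 1531 and 2477 (methionine-free), 1199 (tryptophan/niacin-free) and 1191 CPM (combined omission), and its fold change of 0.63 (SE 0.59) was close to the median of the family. RPS27A encodes ubiquitin fused to a ribosomal protein and stood at 732 (normal), 829 and 1086 (methionine-free), 759.7 (tryptophan/niacin-free) and 753 CPM (combined omission). FAU, fused to a ubiquitin-like protein and with a name the rule does not take, stood at 291 (normal), 376 and 647 (methionine-free), 306 (tryptophan/niacin-free) and 331 CPM (combined omission). Its fold change was 0.82 (adjusted p = 0.739, edgeR), against 0.39 for RPS27A.

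The paralogs did not share 1 pattern with their more abundant relatives. RPL22 stood at 520.0 (normal), 601 and 667 (methionine-free), 503 (tryptophan/niacin-free) and 477 CPM (combined omission), and RPL22L1 at 35.2 (normal), 45.7 and 45.3 (methionine-free), 39.9 (tryptophan/niacin-free) and 44 CPM (combined omission). RPL22L1 had the smallest difference within the methionine-free pair of all members, a log2 difference of −0.01, on 19 to 38 counts. RPS27 stood at 694 (normal), 744 and 1100.3 (methionine-free), 587 (tryptophan/niacin-free) and 648 CPM (combined omission), and RPS27L at 51.9 (normal), 54.8 and 61.5 (methionine-free), 47.9 (tryptophan/niacin-free) and 41.6 CPM (combined omission). In both genes replicate 2 was highest and replicate 1 second, and the 5 libraries lay closer together in RPS27L. RPL36A stood at 342 (normal), 368 and 508 (methionine-free), 302 (tryptophan/niacin-free) and 312 CPM (combined omission), and RPL36AL at 65.8 (normal), 76.7 and 116 (methionine-free), 60.6 (tryptophan/niacin-free) and 69.4 CPM (combined omission), and in this pair the log2 differences of replicate 2 from normal food were 0.57 and 0.80. RPL26 stood at 596 (normal), 638 and 845 (methionine-free), 506 (tryptophan/niacin-free) and 534 CPM (combined omission), and RPL26L1 at 12.1 (normal), 16.4 and 48.5 (methionine-free), 20.7 (tryptophan/niacin-free) and 23.1 CPM (combined omission). RPL26L1 was lowest on normal food, whereas RPL26 was lowest without tryptophan and niacin. RPL7L1, a nucleolar relative of RPL7, stood at 49.1 (normal), 58.5 and 93.8 (methionine-free), 81.4 (tryptophan/niacin-free) and 57.8 CPM (combined omission). RPL26L1 and RPL7L1 were the members furthest above normal food without tryptophan and niacin. RPL3, near the site of peptide bond formation, and RPL10, joined late in assembly, stood at 2079.7 and 2587 CPM on normal food, with their relatives RPL3L and RPL10L at 0 counts. RPL39, with RPL39L at 0 counts, stood at 723 (normal), 893 and 1251 (methionine-free), 622 (tryptophan/niacin-free) and 652 CPM (combined omission). The differences between a gene and its paralog were not tested.

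Adding the omission of tryptophan and niacin to that of methionine was compared next. Fitted levels were lower under the combined omission than the fitted mean of the methionine-free pair for all 82 genes (51.2% of tested genes). The median fitted log2 fold change was −0.56 (−0.02 over all tested genes). Single libraries could differ from this: RPL11 stood at 891 CPM under the combined omission and at 875 CPM in methionine-free replicate 1. In edgeR's test 0 of 82 passed, and 3 of 10005 genes did (0.03%), all of them higher. The largest difference was that of RPS3A (log2 fold change −1.35, SE 0.65, adjusted p = 0.643), the 1 member with an unadjusted p below 0.05 (7.57% of tested genes). RPL9 (−1.02) and RPL27 (−0.93), both large subunit genes, followed. Among the smallest were those of RPL22L1 (−0.05) and RPL11 (−0.10). After the correction for transcript length described below, RPS3A passed (log2 fold change −0.90, SE 0.23, edgeR adjusted p = 0.0233). It was 1 of 82 members, where 63 of 9586 genes passed. With 20 of 82 members then above 0, the median over them was −0.14. An additive fit without methionine-free replicate 2, not corrected for length, gave −0.19. That fit also takes in the difference of tryptophan/niacin-free from normal food, so its value is not the same quantity. With the curve fitted without the members RPS3A also passed (adjusted p = 0.0213). It did not pass in the other 12 alternatives, where adjusted p ran from 0.296 to 1. Decimal counts occur in RPS3A, so that part of its level may be shared with copies.

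Set against the tryptophan/niacin-free library, the fitted mean of the methionine-free pair was higher in 81 of 82 genes. Tryptophan/niacin-free minus methionine-free was below 0 in 51.3% of tested genes. Its median over the members was −0.70 (−0.36 in an additive fit without methionine-free replicate 2). After the length correction it was −0.27, with 10 of 82 members above 0. In edgeR's test 0 of 82 and 0 of 10005 genes passed (0.0%), and 3 members, RPS15 and RPS28 among them, had an unadjusted p below 0.05 (4.91% of tested genes). By DESeq2 and limma-voom 0 genes passed as well. Among the largest differences were those of RPS3A (−1.13) and RPL28 (−1.09). RPS15, of the head of the small subunit, stood at 333 (normal), 451 and 641 (methionine-free), 273 (tryptophan/niacin-free) and 361 CPM (combined omission), with the tryptophan/niacin-free library lowest of all. At the other end were RPL7L1 (0.09), RPL22L1 (−0.19) and RPL23 (−0.24).

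The interaction asks whether leaving out methionine made the same difference with and without tryptophan and niacin in the food. It is the difference between the combined omission and the tryptophan/niacin-free library minus that between methionine-free and normal food. Its median over the members was −0.42 (−0.02 over all tested genes), with 80 of 82 below 0 (50.9%). In edgeR's test 0 of 82 passed, where 43 of 10005 genes did (0.43%), and 0 members had an unadjusted p below 0.05 (6.45%). DESeq2 and limma-voom called 0 members too. The lowest values were those of RPS3A (−1.36, SE 0.94), RPL26L1 (−1.29) and RPL7L1 (−1.13), and among the highest were those of RPL11 (0.21) and RPL37 (−0.06). After the length correction the median was 0.02, against −0.02 over all tested genes, and 43 of 82 were above 0. All these contrasts share the methionine-free pair or the normal library, and their values are therefore not independent of each other.

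The 3 diets with 1 library each have no replicate check, and these comparisons are between libraries, with 95% exact intervals of the count ratio that cover counting error only. No member differed by at least 2-fold with an interval that excludes 1 in any of these 3 comparisons (1.01% of tested genes higher and 2.51% lower without tryptophan and niacin against normal food, 0.95% and 1.07% under the combined omission, 2.31% and 1.73% between both). Between methionine-free replicate 2 and normal food 18 members did, all higher (22.0%, against 4.89% of tested genes). By the same rule 150 of 786 other tested genes with transcripts under 1000 bases were higher. So were 20 of 77 genes for mitochondrial ribosomal proteins, so that this share was not particular to the family. Between both replicates 3 members did, RPS7, RPS3A and RPL26L1 (2.43% of tested genes). RPS7, a small subunit protein mutated in some cases of Diamond-Blackfan anaemia, stood at 884 (normal), 1018 and 2110.0 (methionine-free), 878 (tryptophan/niacin-free) and 909 CPM (combined omission), with replicate 2 alone set apart. Without tryptophan and niacin, 35 members had an interval below 1 (7.9% of tested genes) and 1 above 1 (6.1%). The members have more counts than most genes, so that smaller ratios leave their intervals. RPL12, at the base of the stalk, stood at 999 CPM against 1331 CPM on normal food (0.751-fold, counting interval 0.682 to 0.825). RPL14 (0.779-fold, counting interval 0.658 to 0.921) and RPS9, at the entry of the mRNA channel (0.781-fold, counting interval 0.687 to 0.887), came next. RPL7L1 was the member with an interval above 1 (1.66-fold, counting interval 1.11 to 2.48), and the intervals of RPL26L1 (1.72-fold, counting interval 0.735 to 4.03) and RPL22L1 (1.13-fold, counting interval 0.655 to 1.93) included 1.

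Under the combined omission 5 members had an interval of the ratio to normal food above 1 (4.2% of tested genes), namely RPLP1, RPS16, RPL18, RPL28 and RPL8, and 11 had one below (3.94%). RPL28 was at 1059.5 against 737 CPM (1.44-fold, counting interval 1.28 to 1.61), and RPL26L1 (1.92-fold, counting interval 0.754 to 4.74) and RPL22L1 (1.25-fold, counting interval 0.679 to 2.22) had wide intervals. At the low end were RPL14 (0.79-fold, counting interval 0.65 to 0.955), RPL21 (0.8-fold, counting interval 0.695 to 0.922) and RPS21 (0.802-fold, counting interval 0.679 to 0.943). RPL14 was thus among the 3 lowest in both lone libraries, which share the normal library as their reference. Against the tryptophan/niacin-free library the combined omission was higher in 59 of 82 genes (50.0% of tested genes), with a median of 0.11, and 25 intervals lay above 1 (6.34%) and 3 below, those of RPL5, RPSA and RPS3A (4.62%). The largest ratios were those of RPL28 (1.58-fold, counting interval 1.38 to 1.8), RPL18 (1.34-fold, counting interval 1.18 to 1.52) and RPS15 (1.32-fold, counting interval 1.06 to 1.65). The smallest were those of RPL7L1 (0.711-fold, counting interval 0.422 to 1.17), RPS15A (0.848-fold, counting interval 0.713 to 1.01) and RPSA (0.848-fold, counting interval 0.721 to 0.997). Across the 82 genes this difference correlated with the GC content of the transcripts (Pearson's r 0.54, Spearman's rho 0.58), and across 9504 other tested genes less so (r 0.19, rho 0.20). The other genes have fewer counts at the median, and counting error weakens a correlation more in them, so the values of both sets are not directly comparable. These are correlations across genes of 2 libraries, which share base composition and depth, and are given as a description.

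The median differences of large and small subunit genes from normal food were furthest apart in methionine-free replicate 2, where small subunit genes stood higher. The median log2 differences from normal food were 0.23 for large and 0.24 for small subunit genes in replicate 1, 0.79 and 0.92 in replicate 2, −0.13 and −0.14 without tryptophan and niacin, and −0.03 and −0.05 under the combined omission. In replicate 2 the medians were 0.13 apart, with an SD across single genes of 0.31 (large) and 0.27 (small), and as distances from the length curve described below they were 0.20 and 0.29. The difference between these medians was not tested. By summed counts, the large subunit held 61.9% on normal food (95% exact binomial interval 61.6% to 62.2%), 60.9% (60.5% to 61.3%) and 59.2% (58.8% to 59.5%) in methionine-free replicates 1 and 2, 61.7% (61.3% to 62.2%) without tryptophan and niacin and 62.3% (61.8% to 62.8%) under the combined omission. The methionine-free mean was 60.0% ± 1.22 (SD, n = 2), and the 3 other libraries lay between 61.7% and 62.3%. Both methionine-free libraries were below the others, but the 1.72 percentage points between them exceeded the 0.99 points between replicate 1 and normal food. No test of this share was made. Per kilobase of transcript the order of the libraries was the same at the low end, with 56.8% in replicate 2, 58.1% in replicate 1 and 58.7% to 59.3% in the others.

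**Figure D4:**
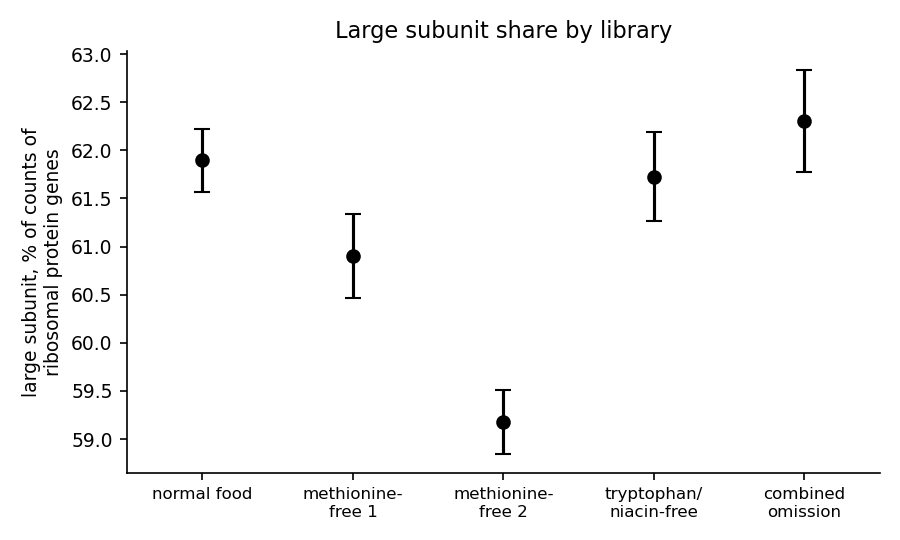
Large subunit genes as a percent of the summed counts of all 82 ribosomal protein genes in each library; bars are 95% exact binomial intervals for counting error, and the vertical axis does not start at 0. The share is 59.2% in methionine-free replicate 2, 60.9% in replicate 1 and between 61.7% and 62.3% elsewhere.

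The transcripts of this family are short, and methionine-free replicate 2 differed from normal food along transcript length across all tested genes. The median transcript of the members was 757 bases long, and 77 of 82 fell in the shortest of 4 equal groups of tested genes (up to 1686 bases). From the shortest to the longest group, the median log2 difference from normal food was 0.49, 0.14, −0.12 and −0.43 in replicate 2. In replicate 1 it was 0.14, 0.01, −0.02 and −0.11, and in both libraries of the diets without tryptophan and niacin the group medians lay between −0.03 and 0.00. Among the 786 other tested genes with transcripts under 1000 bases the medians were 0.61 in replicate 2, 0.18 in replicate 1, 0.02 without tryptophan and niacin and −0.03 under the combined omission. The 62 members of that length had medians of 0.85, 0.26, −0.14 and −0.05. Other short transcripts thus also stood above normal food in the methionine-free libraries, by a smaller median than the members. Without tryptophan and niacin they did not stand below it, and the members did.

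A smooth curve of the difference against length, drawn through the other tested genes, gave values at the members' lengths with a median of 0.60 in replicate 2 and 0.18 in replicate 1. The members lay above this curve by a median of 0.22 in replicate 2 (65 above, 17 below) and 0.08 in replicate 1 (57 above, 25 below). They lay below it by a median of 0.15 without tryptophan and niacin (73 below, 9 above), and the median distance was −0.03 under the combined omission. RPL26L1 was furthest above in replicate 2 (1.15) and RPL11 furthest below (−0.45). With counts corrected by the curve through all genes, the median fitted log2 fold change of methionine-free against normal food was 0.17 in place of 0.57. In edgeR's test 0 of 82 members then passed, where 95 of 9586 genes did. Within the family, length and the difference of replicate 2 from normal food were nearly unrelated (Pearson's r −0.07, Spearman's rho −0.12, 82 genes). Across 9504 other tested genes r was −0.41 and rho −0.49. Within the 786 short ones it was also small (r 0.05, rho −0.06). The position of a member within the family thus did not follow its length, while the family as a whole lies where the curve is high. With GC content, rho across the 82 genes was 0.42 in replicate 2 and 0.35 in replicate 1. It was −0.27 without tryptophan and niacin and 0.43 under the combined omission. Across the 9504 other genes, which have fewer counts at the median and thus more counting error, these were −0.04, −0.06, −0.08 and 0.15. Whether RNA quality or library preparation differed between the samples was not tested.

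**Figure D5:**
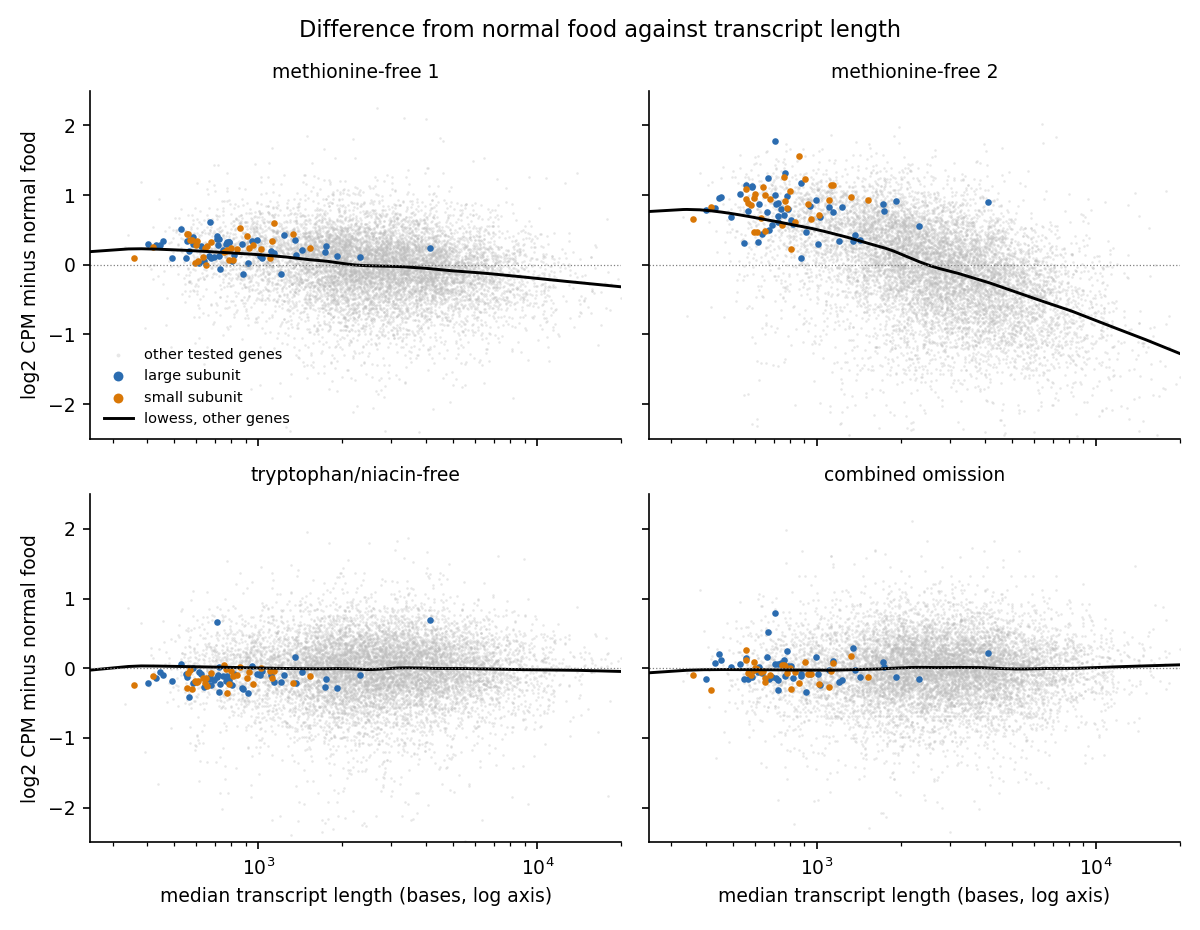
Difference from normal food in log2 CPM against median transcript length in bases (log axis) for each of 4 libraries; grey points are other tested genes with a length, the black line is their lowess curve, and coloured points are large and small subunit genes. The curve falls with length in methionine-free replicate 2, less in replicate 1, and is flat in the lower panels, where the members without tryptophan and niacin lie mostly below it.

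Other gene lists were set beside the family. They were chosen with earlier results of these data known, and no test of a list was made. The 77 tested genes for mitochondrial ribosomal proteins, whose products are made on cytosolic ribosomes and which lack the TOP tract in most cases, had median log2 differences from normal food of 0.78 in methionine-free replicate 2, 0.30 in replicate 1 and 0.05 without tryptophan and niacin. For 27 genes of respiratory complex I these were 0.83, 0.11 and 0.09. For 25 tested translation factors and other genes known for TOP tracts, the medians were 0.50, 0.16 and −0.08, and for 11 noncoding hosts of small nucleolar RNAs 0.28, −0.02 and −0.40. As distances from the length curve, the medians in replicate 2 were 0.36 for mitochondrial ribosomal proteins, 0.15 for complex I, 0.18 for the translation factors and −0.16 for the small nucleolar RNA hosts, against 0.22 for the cytosolic ribosomal protein genes. The order of the lists thus differed from that without the curve, and the median of the hosts changed sign. In edgeR's test of methionine-free against normal food, 0 genes of these 4 lists passed, with 10 of 77, 6 of 27, 0 of 25 and 0 of 11 at an unadjusted p below 0.05 (7.68% of tested genes). The highest and lowest fold changes were those of MRPL36 (1.51) and MRPS31 (−0.54), NDUFB6 (1.23) and NDUFB3 (−0.20), EEF1B2 (0.86) and EIF4A2 (−0.46), and SNHG15 (0.47) and SNHG12 (−0.43). EEF1B2, a subunit of the elongation factor eEF1, stood at 496 (normal), 682 and 1116 (methionine-free), 552 (tryptophan/niacin-free) and 544 CPM (combined omission), with replicate 2 highest and replicate 1 second.

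Regulators of the family had medians from −0.01 to 0.18. The list held 17 genes, among them MTOR, RPTOR, the S6 kinases, LARP1, MYC and subunits of RNA polymerase I. Medians were −0.01 in methionine-free replicate 2, 0.07 in replicate 1, 0.13 without tryptophan and niacin and 0.18 under the combined omission. Single genes varied more, with an SD across genes of 0.66 in replicate 2. None passed in edgeR's test of methionine-free against normal food (0 of 17 at an unadjusted p below 0.05). These values are not corrected for transcript length. The lowest fold change was that of MTOR, which stood at 119 (normal), 94.1 and 55 (methionine-free), 156 (tryptophan/niacin-free) and 111 CPM (combined omission) (log2 fold change −0.67, adjusted p = 0.762).

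Members with and without a TOP tract at the listed start were also compared by their medians. This split depends on the listed start. A tract at or within a few bases of it was found in 51 of 67 members (76.1%; 18.8% of all genes with a record and 22.9% of other tested genes). RPL3, RPL4, RPL32 and RPS28 thus count as without a tract but have one close by. In methionine-free replicate 2 the 47 genes with a tract had a median log2 difference from normal food of 0.83 and the 20 with a record and no such tract one of 0.88. In replicate 1 both stood at 0.26, without tryptophan and niacin at −0.14 and −0.10, and under the combined omission at −0.03 and −0.05. As distances from the length curve, the medians in replicate 2 were 0.21 with a tract and 0.38 without, and in replicate 1 they were 0.07 and 0.13. The SD across single genes in replicate 2, before that step, was 0.28 with a tract and 0.36 without. The difference between genes with and without a tract was not tested.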

How the data were processed

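Polyadenylated RNA was sequenced from 5 libraries made with a kit that keeps strand (labels' protocols). The authors deposited estimated counts per gene symbol, 1 table per library, with decimals in 15.2% to 17.6% of values above 0. The submitters' processing notes name TopHat2 2.1.1, Bowtie2 2.2.8, SAMtools 0.1.18, featureCounts from Subread 2.0.0 and hg19. Not given in the sources used here are the annotation, the strand setting and how reads mapping to several places or from the mouse were treated, so that mouse reads could be counted under conserved symbols.

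Counts were rounded and tested with edgeR 4.0.16 in R 4.3.3 (quasi-likelihood test, 1 mean per diet, TMM scaling, filter on low counts by diet, Benjamini-Hochberg adjustment over 10005 genes, threshold 0.05). The methionine-free pair alone gave the spread for every diet, with 1 residual degree of freedom. The prior degrees of freedom of this fit were infinite. Each gene's SE and p-value thus rest on a spread shared across genes, and its own pair hardly enters. CPM use TMM-scaled library sizes, and log2 differences between libraries have a prior count of 2. Diets with 1 library each were compared by size (at least 2-fold, with a 95% exact interval of the count ratio that excludes 1). Intervals and floors (3 counts) cover counting error only. Adding DESeq2 1.42.0, limma-voom (limma 3.58.1), other scalings, no filter, corrections for transcript length and GC content, an additive fit and leaving out each methionine-free library gave the alternatives. Transcript lengths are medians over coding transcripts of a GENCODE annotation matched by symbol, for 9586 of the tested genes. The curve against length is a lowess with a span of 0.3. The test was checked on simulated counts with larger changes than the members' median and without a length trend. The length correction was checked on simulated log2 values with a straight slope. These checks do not cover changes as small as that median, or the test run after the length correction.

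The members and the other lists were chosen with earlier results of these data known. Named genes are those past the threshold, the 5 highest and 5 lowest fold changes of methionine-free against normal food, the 3 at each end of the other comparisons, the 5 at each end of the levels per kilobase, genes known for their roles, the paralog pairs and the extremes of the other lists. Members named outside this rule, as exceptions to a count or within a count of few, were chosen after their values were seen. Some genes that the rule names are not reported here.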

Additional observations from a re-analysis of the deposited data

How the results depend on the processing

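In the tests of methionine-free against normal food, of tryptophan/niacin-free against methionine-free and of the interaction, 0 members passed under any alternative run. In that of the combined omission against methionine-free, 1 member, RPS3A, passed after the length correction and 1 after the same correction with a curve fitted without the members, an alternative chosen after seeing the data, as were coding length, principal-transcript length and the additive fits of tryptophan/niacin-free against methionine-free. The cause was not tested. Each methionine-free library was left out in turn in an additive fit, in which a lone sample is assumed to vary like the others. In such a fit, methionine-free against normal food also takes in the combined omission against tryptophan/niacin-free. The median of methionine-free against normal food was then 0.16 without replicate 2 and 0.47 without replicate 1. Taken directly as the difference of the remaining library from normal food, that median ran from 0.24 without replicate 2 to 0.83 without replicate 1. An additive fit has no interaction term, so that the interaction has no such value.

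Over the alternatives, the members' median was 0.16 (length and GC correction) to 0.83 (replicate 2 alone) for methionine-free, −0.15 to −0.09 for tryptophan/niacin-free and −0.05 to −0.02 for the combined omission against normal food, and 0.07 to 0.16 for the combined omission against tryptophan/niacin-free, with no change of sign. Scaling by total counts moved all differences of methionine-free replicate 2 from normal food by −0.13 and gave the members a median of 0.70. In the shortest and longest of 4 equal groups of genes the median of that library was 0.50 and −0.50 by coding length and 0.49 and −0.44 by principal-transcript length.

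Counts of all genes past the threshold varied more. For methionine-free against normal food, 23 in the chosen fit became 95 (7 higher, 88 lower) with the length correction, 94 with the curve without the members, 41 by coding length, 2 by principal-transcript length, 1 by DESeq2 and 0 in the additive fit and without either library. For the combined omission against methionine-free, 3 became 63 (55 higher, 8 lower) with either length correction, 6 by total count, 6 by coding length, 9 by limma-voom, 2 with length and GC and 0 by principal-transcript length, DESeq2 and the additive fits. For tryptophan/niacin-free against methionine-free, 0 became 13 and 12 with the length corrections. For the interaction, 43 became 118 with either length correction, 21 by principal-transcript length and 2 by DESeq2.

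The large subunit share per kilobase was 58.7% on normal food, 58.1% and 56.8% in methionine-free replicates 1 and 2, 58.7% without tryptophan and niacin and 59.3% under the combined omission. Without RPL4 and RPS2, the most abundant member of each subunit, it was 62.5%, 61.6%, 59.6%, 62.1% and 62.9%. No paired analysis was possible because 3 of the 4 diets have 1 library and the labels give no numbers shared between diets. Depth limits the rare paralogs most: RPL26L1 rests on 9 to 30 counts and RPL22L1 on 19 to 38.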
